A study of Mus musculus with 12 samples.

Results

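The immediate-early response genes Fos, Fosb, Jun, Junb, Jund, Egr1, Atf3, Ier2, Dusp1 and Nr4a1 were followed in single-nucleus RNA sequencing of mouse lung. The 10 genes were taken by name from the 31053 genes listed in the count matrices, and all 10 were found. All 10 are described whatever their values, but the list was chosen with earlier results of these data known. Raw counts of unique molecular identifiers (UMIs, each marking 1 captured RNA molecule) were used in all 12 libraries, across cell classes named from marker genes and across the 4 groups of the study.

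The lungs came from wild-type C57BL/6J mice that were 7 weeks old when they received bleomycin at 1.2 U/kg, or PBS as its control, into the trachea. From day 5 the mice were given NVP-BHG712, an inhibitor of the receptor tyrosine kinase EphB4, or its vehicle, by mouth daily for 5 days, and the lungs were taken on day 14. The groups are named PBS_vehicle, PBS_NVP, Bleo_vehicle and Bleo_NVP, with 3 mice and 3 libraries in each, and the comparisons ask what bleomycin changes and what the inhibitor changes with and without it. Lungs were perfused, snap frozen and broken up with a dounce homogenizer, and nuclei were sorted on DAPI.

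Immediate-early genes are transcribed within minutes of a signal such as a growth factor, injury or mechanical stress, from promoters that are already occupied, and most of their RNAs decay quickly. Fos, Fosb, Jun, Junb and Jund encode the proteins that pair into the AP-1 transcription factor, Egr1 a zinc-finger factor, Nr4a1 an orphan nuclear receptor, Atf3 a stress-induced factor of the ATF/CREB family and Ier2 a small nuclear protein, while Dusp1 encodes the phosphatase that switches off MAP kinases. Handling and dissociation of tissue are known to induce these genes as well.

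The promoters of 8 of the 10 genes, taken by symbol from RefSeq (assembly GRCm38.p6), were used, and those of Egr1 and Ier2 were not. The 250 bases before each start site were searched on both strands for the elements through which such genes are classically induced. The TGACG core of the cyclic AMP response element, which CREB and ATF proteins bind, stood in 6 of the 8 promoters and in 17.6% of 27025 mouse promoters of the same length. The sequences that hold it are shown because the core is what these 6 of the 8 promoters have in common. They are written 5′ to 3′ on the gene's strand with the core in capitals (CGTCA is the same core on the other strand).
Fos, chr12:85473746-85473843, plus strand: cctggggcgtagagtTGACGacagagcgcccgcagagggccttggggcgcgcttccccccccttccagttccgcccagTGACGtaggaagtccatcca
Fosb, chr7:19310086-19310120, minus strand: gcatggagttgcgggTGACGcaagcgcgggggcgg
Junb, chr8:84978835-84978869, minus strand: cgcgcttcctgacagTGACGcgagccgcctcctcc
Atf3, chr1:191183334-191183355, minus strand: ctattaatagcattaCGTCAgc
Dusp1, chr17:26508593-26508678, minus strand: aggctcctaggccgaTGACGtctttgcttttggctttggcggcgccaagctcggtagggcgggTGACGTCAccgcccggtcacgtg
Nr4a1, chr15:101266598-101266825, plus strand: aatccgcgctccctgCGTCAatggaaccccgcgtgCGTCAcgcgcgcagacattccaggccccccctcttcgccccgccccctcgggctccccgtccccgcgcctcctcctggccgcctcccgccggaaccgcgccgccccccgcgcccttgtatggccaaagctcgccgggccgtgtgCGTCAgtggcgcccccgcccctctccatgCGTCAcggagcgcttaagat

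Nr4a1 held 4 cores and Fos 2, and Dusp1 held the full palindrome TGACGTCA, in which the cores of both strands overlap and which 1.56% of all promoters hold. The windows of Jun and Jund held no TGACG. None of the 8 windows held the AP-1 site TGANTCA (6.87% of promoters), the EGR site GCGTGGGCG (0.485%), a CArG box, the element of serum response factor (1.39%), or a glucocorticoid response element (0.115%). These are matches of letters in a fixed window, and no binding was measured. Bases farther upstream, other start sites, and the promoters of Egr1 and Ier2 were not searched, so the counts of elements do not cover them. The absence of an element from these windows therefore does not show that a gene lacks it.

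The 12 libraries held 49163 barcodes, of which 44611 nuclei were kept. Library totals ran from 3556084 UMIs (Bleo_NVP 1) to 61947690 (Bleo_vehicle 3), and 324 barcodes occurred in more than 1 library. The libraries stood apart in ways that the groups do not describe. Over 9165 genes, with the 10 immediate-early genes left out, 9 libraries fell into 3 sets of like libraries that cross the groups, namely PBS_vehicle 1 with PBS_NVP 1 (set 1), PBS_vehicle 2 with PBS_NVP 2 and Bleo_NVP 2 (set 2), and PBS_vehicle 3 with PBS_NVP 3, Bleo_NVP 1 and Bleo_NVP 3 (set 3). Pairs within a set had Pearson correlations of 0.986 to 0.997 of log2 levels across genes, and pairs between sets 0.960 to 0.982. Each pair within a set still differed beyond sampling noise, with a chi-square of 2.37 to 5.29 per degree of freedom. The 3 Bleo_vehicle libraries belonged to no set, their median mitochondrial share was 0.668% to 2.56% against at most 0.0496% elsewhere, and they carry batch numbers that no other group has. The Bleo_NVP libraries all carry run number 4, and the PBS libraries carry run numbers 1 to 3. Batch or run number and group therefore cannot be told apart in any comparison with a bleomycin group. Free RNA differed between libraries as well. After every nucleus was thinned to 500 UMIs, Sftpc, a surfactant gene of type II alveolar cells, was seen in 73.1% of 227 B lymphocyte-like nuclei of Bleo_vehicle 3 (exact 95% interval 66.9% to 78.8%, counting error only) and 54.8% of 31 in Bleo_vehicle 2, but in 1 of 9 in Bleo_vehicle 1. It was seen in 9.43% of 53 in PBS_vehicle 1, 14.2% of 113 in PBS_NVP 1 and 5.26% of 19 in Bleo_NVP 2. The other libraries held 0 to 25 such nuclei each. Free RNA by this measure was thus high in Bleo_vehicle 2 and 3 and not seen to be so in Bleo_vehicle 1, and the groups were not compared by a test.

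In the kept nuclei the 10 genes gave 34512 UMIs, and 17177 nuclei (38.5%) held at least 1 of them. Dusp1 was seen in 16.1% of nuclei and Jund in 12.1%, followed by Jun (7.19%), Nr4a1 (4.63%), Junb (4.54%), Fos (3.14%), Ier2 (2.73%), Egr1 (1.98%), Atf3 (1.35%) and Fosb (0.513%). These shares follow depth, and genes are not compared with each other by level here, since UMIs were not set per length. On GRCm38 (GENCODE M21) Dusp1 lies on chromosome 17 at 26505590-26562128, Jund on chromosome 8 at 70698949-70700616, Jun on chromosome 4 at 95049034-95052222 and Nr4a1 on chromosome 15 at 101254269-101274795. No gene of the matrices overlaps any of the 10 on the same strand. Genes on the opposite strand overlap Jun (the antisense RNA Junos), Junb (Prdx2), Jund (Gm11175) and Dusp1 (Ergic1 and Gm8225).

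Nuclei were clustered without the 10 genes, and clusters were named from marker lists into 19 classes, each to be read as "like" the cell it is named for, with 1756 nuclei left unnamed. The 11 classes with at least 20 nuclei in every library are described below, in CPM (UMI counts scaled to a library of 1e+06, with all UMIs of that class in that library as the total, adjusted by the TMM method). Most were led by their own markers. Type II alveolar nuclei comprised a cluster of 2883 led by Acoxl, Hc and Lamp3 and a cluster of 1412 led by Areg, Tnip3 and Slc26a4. The larger smooth muscle cluster (428 nuclei) was led by Kctd16, Hhip and Pappa2, with no smooth muscle marker among its 10 leading genes, whereas Myh11 and Acta2 led the smaller (274 nuclei). A cluster of 1936 macrophage nuclei with Gpnmb, Mmp12 and Msr1 among its leading genes and 4 of 11 alveolar macrophage markers raised is called macrophage with mixed markers.

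Each class had its own mix of immediate-early genes. Dusp1 made up 46.9% of the 10 genes' UMIs in fibroblasts and 47.1% in type I alveolar cells, the flat cells of gas exchange, but 14.4% in alveolar macrophages. Jun made up 39.0% in aerocytes, the large capillary cells of the alveolus, 29.4% in general capillary cells and 22.1% in venous endothelium, but 5.36% in fibroblasts. Fos made up 23.2% in alveolar macrophages and 19.8% in macrophages with mixed markers, but 1.28% and 1.33% in the capillary classes. Jund made up 38.2% in ciliated and 27.6% in type II alveolar cells, and Egr1 19.9% and Nr4a1 18.1% in smooth muscle. The median over libraries lay close to these pooled shares where UMIs were many, at 47.4% for Dusp1 in fibroblasts and 34.0% for Jun in aerocytes. Dusp1 gave the most UMIs of the 10 genes in 12 of 12 libraries in type I cells and in 11 of 12 in fibroblasts.

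**Figure D1:**
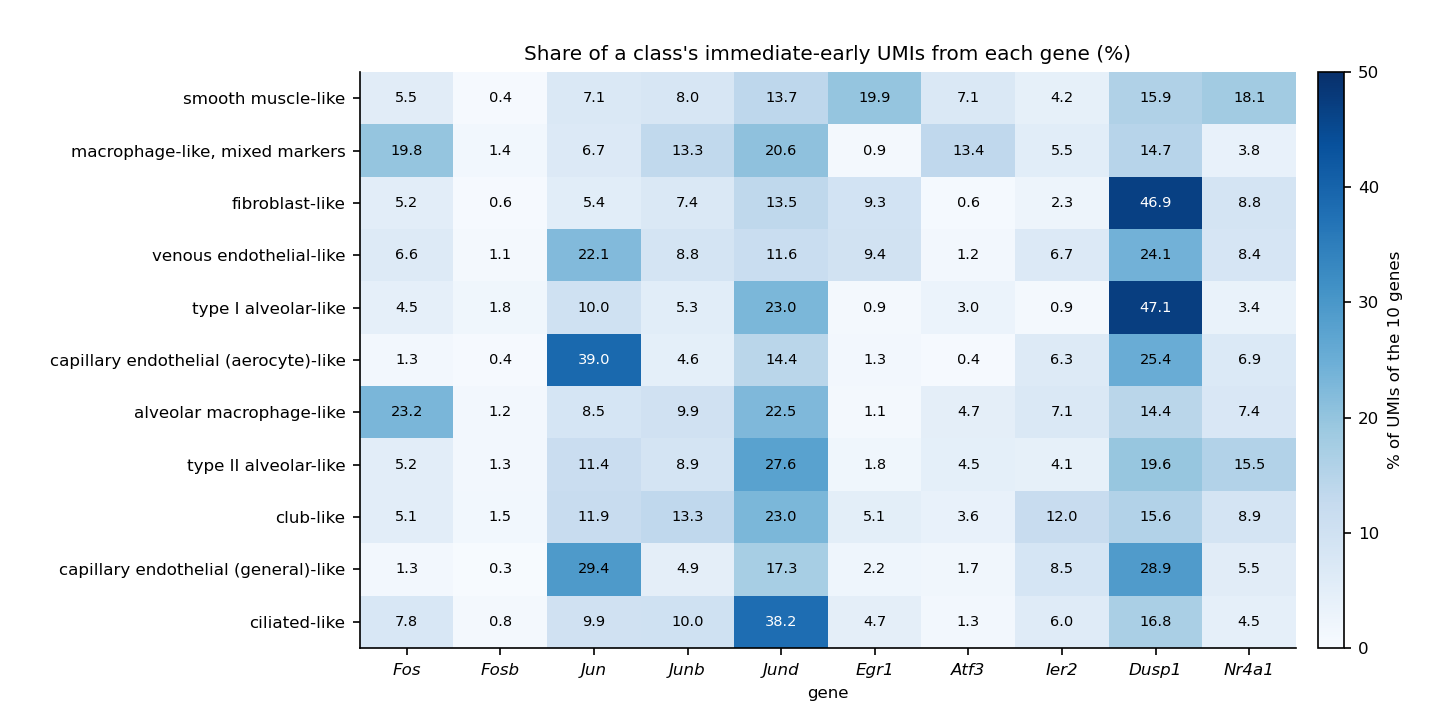
Share of the 10 genes' UMIs (%, colour and number) that each gene (columns) gave in each of 11 cell classes (rows, ordered by the summed level of the 10 genes), pooled over 12 libraries. Dusp1 reached 46.9% in fibroblasts and 47.1% in type I alveolar cells, Jun 39.0% in aerocytes, Jund 38.2% in ciliated cells and Fos 23.2% in alveolar macrophages.

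The AP-1 genes differed in where they were highest. The Fos level averaged 71.6 ± 53.4 CPM (SD, n = 12 libraries) in macrophages with mixed markers and 50.3 ± 23.6 in alveolar macrophages. The alveolar macrophage level was above that of either capillary class in 12 of 12 libraries and above that of fibroblasts in 11 of 12, and the macrophage classes did not differ beyond their spread (mixed markers higher in 8 of 12). General capillary cells were lowest, at 3.49 ± 5.89 CPM. Fosb, the scarcest of the 10, was highest in type I alveolar cells (6.43 ± 13.3 CPM), where 1 library decided the mean. Its level there was 47.9 CPM in Bleo_vehicle 1, 6.12 and 3.34 in the other Bleo_vehicle libraries, and at most 8.05 in the 9 remaining libraries.

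The Jun level was highest in the endothelial classes and lowest in fibroblasts. It averaged 75.3 ± 48.7 CPM in aerocytes, 44.2 ± 17.3 in general capillary cells and 42.4 ± 35.0 in venous endothelium, and 10.9 ± 9.34 in fibroblasts. Aerocytes were above general capillary cells in 11 of 12 libraries and above fibroblasts in 12 of 12, while general capillary and venous endothelium, next to each other in this order, were close, with general capillary cells higher in 6 of 12. Junb averaged 44.1 ± 38.4 CPM in macrophages with mixed markers, 39.9 ± 49.8 in smooth muscle and 10.5 ± 8.79 in aerocytes. Jund had the smallest ratio of highest to lowest class mean of the 5 AP-1 genes, from 74.0 ± 48.2 CPM in macrophages with mixed markers and 52.4 ± 19.7 in ciliated cells to 23.8 ± 9.88 in general capillary cells, and the 8 classes from ciliated cells to aerocytes had means of 34.3 to 52.4 CPM.

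The other transcription factor genes were highest in smooth muscle, on few UMIs. Egr1 averaged 74.2 ± 84.0 CPM in smooth muscle and 27.1 ± 13.1 in fibroblasts, against 1.86 ± 1.91 in type I alveolar cells, and fibroblasts were above the next class, venous endothelium, in 10 of 12 libraries. The smooth muscle mean of Egr1 rested on Bleo_vehicle 1 (295 CPM, 20 UMIs) and Bleo_NVP 1 (187 CPM, 6 UMIs), with 21.1 to 89.1 CPM in the other 10 libraries. Nr4a1 averaged 82.6 ± 106 CPM in smooth muscle, 39.4 ± 42.0 in venous endothelium, 32.4 ± 26.1 in fibroblasts and 25.9 ± 13.2 in type II alveolar cells, and 6.43 ± 7.01 in ciliated cells. Atf3 in smooth muscle was 357 CPM (12 UMIs) in PBS_vehicle 3 and 281 CPM (10 UMIs) in PBS_NVP 3 and at most 31.2 CPM in the other 10 libraries. In macrophages with mixed markers, where Atf3 was next highest, it was 15.8, 61.4 and 63.4 CPM in Bleo_vehicle, 4.14, 39.9 and 17.6 in PBS_vehicle, 7.16, 0 and 0 in PBS_NVP and 0 in each Bleo_NVP library. Outside Bleo_vehicle no library gave more than 3 Atf3 UMIs in this class, so that an absence cannot be read from the values of 0 at this depth.

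Ier2 was highest in club cells, the secretory cells of the airway (20.01 ± 11.2 CPM), and venous endothelium (19.1 ± 25.7), which were each highest in 5 and 4 of 12 libraries, and lowest in type I alveolar cells (1.94 ± 2.13). Dusp1 averaged 138 ± 55.8 CPM in fibroblasts and 116 ± 62.4 in type I alveolar cells. Fibroblasts were highest of the 11 classes in 8 of 12 libraries and type I cells in 3, and fibroblasts were above alveolar macrophages, club cells, ciliated cells and both capillary classes in 12 of 12. Club cells had the lowest mean (27.9 ± 15.8), which did not differ beyond its spread from that of ciliated cells (28.3 ± 24.2). Summed over the 10 genes the level ran from 401 ± 320 CPM in smooth muscle, 314 ± 134 in macrophages with mixed markers and 299 ± 114 in fibroblasts to 156 ± 73.1 in ciliated cells. No class in this order was above the next in more than 7 of 12 libraries, and type II alveolar cells were above club cells in 4.

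The share of nuclei with a UMI gave a similar picture at 1 depth. After thinning to 500 UMIs, which every kept nucleus reached, 14.1% ± 5.04 of fibroblast nuclei held a UMI of at least 1 of the 10 genes, against 12.2% ± 5.003 of macrophages with mixed markers, 10.7% ± 5.01 of type I alveolar and 6.29% ± 2.43 of ciliated nuclei (SD, n = 12 libraries). Without thinning the shares were 46.6%, 25.9%, 52.1% and 25.6%. Lymphocytes can serve as a measure of free RNA only in part, since they express some of these genes themselves. In B lymphocyte-like nuclei, pooled over libraries, the thinned share was 9.47% (exact 95% interval 7.06% to 12.4%, median depth 1377 UMIs). Alveolar macrophages, club, type II alveolar, general capillary and ciliated cells had mean shares below 9.47%. Venous endothelium, type I alveolar cells, aerocytes, smooth muscle and macrophages with mixed markers had means above it but within the interval. The interval counts nuclei pooled over libraries and holds no spread between libraries, so it cannot sort the classes. No class, fibroblasts included, can be set apart from free RNA by this share. Only fibroblasts had a mean above the interval, with libraries from 7.37% to 22.2%. The share in B lymphocyte-like nuclei was 8.99% in Bleo_vehicle and 9.21% in PBS_vehicle, both pooled over nuclei, and 227 of the 267 nuclei of Bleo_vehicle came from Bleo_vehicle 3. Sftpc, by contrast, was seen in 73.1% of such nuclei of Bleo_vehicle 3 and 9.43% of those of PBS_vehicle 1, so the share did not follow this measure of free RNA.

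Within a class the libraries of 1 group spread widely, and some genes stood in the order of the sets of like libraries, which cross the groups. Dusp1 in fibroblasts was 150, 81.3 and 174 CPM in PBS_vehicle 1, 2 and 3, and 164, 123 and 269 CPM in PBS_NVP 1, 2 and 3. It was 168, 82.2 and 163 CPM in Bleo_NVP 1, 2 and 3, and 92.0, 118 and 72.3 CPM in Bleo_vehicle. Libraries of set 2 were the lowest of each of the 3 groups that hold one, and PBS_NVP lay above Bleo_vehicle, while every other pair of groups overlapped. In type I alveolar cells set 2 was again the lowest of the 3 sets, with 48.6, 66.2 and 43.7 CPM in the libraries of set 2 and 160 to 209 CPM in those of set 3.

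The order was not shared by all classes of a library. In alveolar macrophages the libraries of set 2 were the highest of their groups for Dusp1, at 50.7, 47.3 and 43.6 CPM against 15.3 to 40.4 CPM in sets 1 and 3. Fos crossed in the same way. Its level in alveolar macrophages was 85.5, 70.9 and 74.7 CPM in set 2 against 15.3 to 51.9 CPM in the other 6 libraries of the sets, whereas in fibroblasts it was 2.51, 4.56 and 3.47 CPM in set 2 against 13.9 to 35.2 CPM in the others. The ranges did not overlap in either class. Some of these values are small counts, with 2 UMIs behind the 15.3 CPM of Fos in alveolar macrophages of Bleo_NVP 1.

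Jun and Ier2 were often highest in set 1. Jun in aerocytes was 159 CPM in PBS_vehicle 1 and 194 CPM in PBS_NVP 1, against 42.0 to 75.3 CPM in the other 10 libraries, and in fibroblasts it was 30.1 and 23.7 CPM in set 1 against 1.03 to 7.43 CPM in sets 2 and 3. Both libraries of set 1 were above every library of set 3 for Jun in 7 of 11 classes and in none below, and for Ier2 in 5 of 11. The same order held for 16.7% of the 63706 pairs of class and tested gene. The libraries of set 3 were above those of set 1 for Nr4a1 in 5 of 11 classes and above those of set 2 in 5 of 11, against 14.6% and 6.44% of all pairs. In fibroblasts Nr4a1 was 63.8, 81.6, 61.5 and 59.1 CPM in set 3 against 7.43 to 22.3 CPM in sets 1 and 2, and 15.4 to 20.7 CPM in Bleo_vehicle. The sets were drawn from differences across all other genes, are not study groups, and were chosen after the data were seen, so these counts are a description, and what the libraries of a set share was not tested.

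Among the Bleo_vehicle libraries Bleo_vehicle 1, the shallowest (median 1076 UMIs per nucleus) and that with the highest mitochondrial share, stood highest. Its Junb level was the highest of the 12 libraries in 9 of 11 classes, its Ier2 level in 7 and its Egr1 level in 6. Summed over the 10 genes, it was above the class median in 11 of 11 classes and the highest library in 6. This was not particular to a bleomycin library, since PBS_NVP 3 was above the class median in 10 of 11 and highest in 4. For Dusp1, PBS_NVP 3 was highest in 6 of 11 classes and Bleo_vehicle 1 in 2. Junb in fibroblasts was 93.3 CPM in Bleo_vehicle 1, 23.4 in Bleo_vehicle 2 and 6.94 in Bleo_vehicle 3, against 5.52 to 33.5 CPM in the other 9 libraries, so that the Bleo_vehicle libraries differed among themselves more than the other 9 did. The part of mitochondrial share and depth in these values was not tested.

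**Figure D2:**
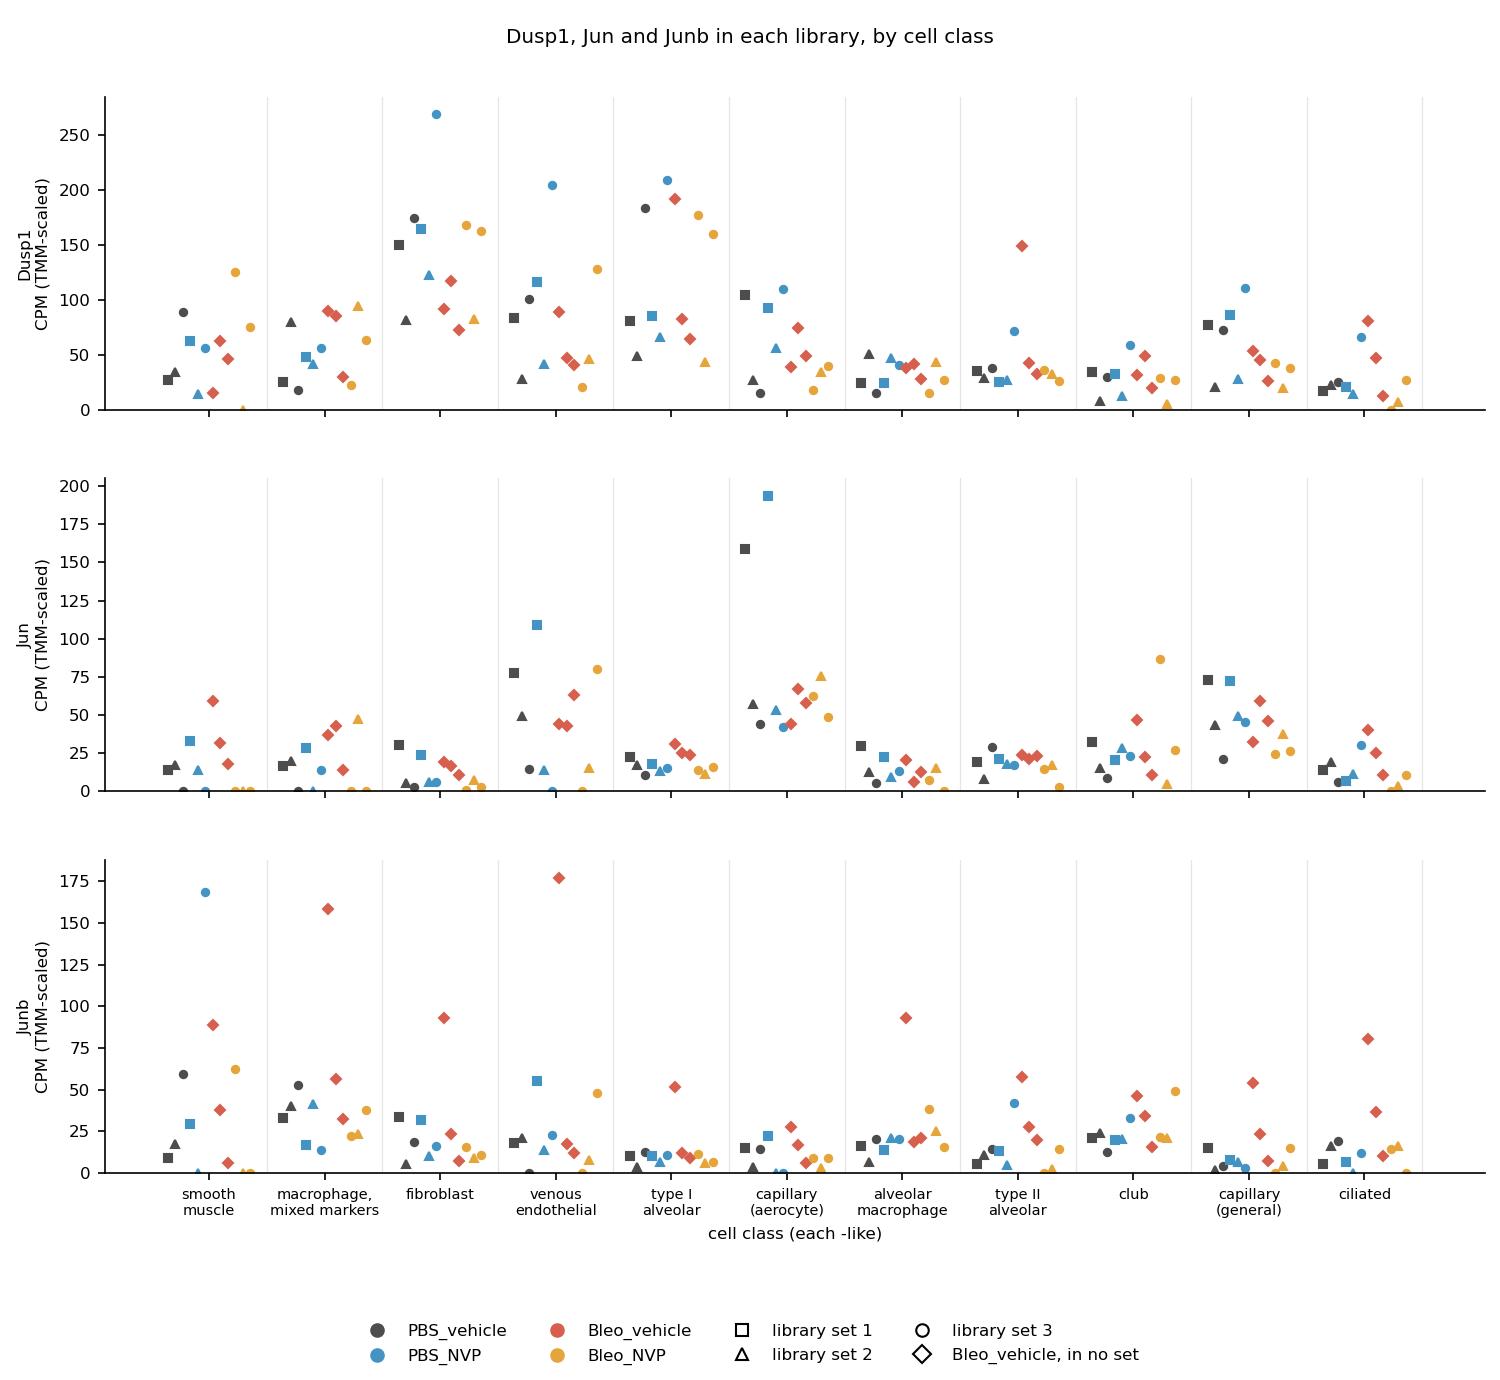
Levels of Dusp1, Jun and Junb (CPM, linear axis from 0) in 11 cell classes, with 1 point for each of 12 libraries, coloured by group and shaped by the set of like libraries. Among the 9 libraries of the 3 sets, Dusp1 was lowest in the triangles (set 2) in fibroblasts and type I alveolar cells but not in alveolar macrophages. Over all 12 libraries Jun was highest in the squares (set 1) in aerocytes, and Junb was highest in Bleo_vehicle 1 in 9 of 11 classes.

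Over all nuclei of a library, none of the 10 genes passed the test between groups. UMIs were summed per library, the 12 sums were fitted together in edgeR's quasi-likelihood test, and a gene was called at a Benjamini-Hochberg adjusted p under 0.05 over 14437 genes. In such sums more cells of a class and more RNA per cell cannot be told apart. Changes are in log2 units with SE. The p-values rest on 1 spread between mice per gene, estimated over all 4 groups of 3 mice with information from other genes. The Bleo_vehicle libraries correlated with each other at 0.908 to 0.979, and whether the shared spread holds for them was not tested. In Bleo_vehicle against PBS_vehicle 0 of 10 genes were called, where 2.43% of all genes were, and 1 of 10 had an unadjusted p under 0.05 (Junb). For none of the 10 were the 3 libraries of a group all on 1 side of the other group's, which was so for 20.3% of all genes. The fitted differences of 8 genes were above 0, with a median of 0.64 over the 10 against 0.0054 over all genes.

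Junb was 68.5, 22.9 and 11.5 CPM in Bleo_vehicle 1, 2 and 3 and 16.7, 7.90 and 16.7 CPM in PBS_vehicle, a difference of 1.26 ± 0.54 (adjusted p = 0.233). Bleo_vehicle 1 and 2 stood above all 3 PBS_vehicle libraries and Bleo_vehicle 3 among them. Fosb was 20.9, 3.03 and 2.28 CPM against 0.935, 0.423 and 4.24 CPM (2.31 ± 1.16). Dusp1 (−0.20 ± 0.46) and Nr4a1 (−0.36 ± 0.60) were the 2 genes with a difference below 0. Nr4a1 in Bleo_vehicle was 16.7, 14.5 and 14.3 CPM, inside the 10.4 to 37.7 CPM of PBS_vehicle.

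In Bleo_NVP against Bleo_vehicle 0 of 10 genes were called, where 5.56% of all genes were. Differences were below 0 for 8 of the 10 genes, with a median of −0.86 against −0.049 over all genes, and Ier2 (−1.36 ± 0.50, adjusted p = 0.116) and Junb (−1.51 ± 0.56, adjusted p = 0.121) had an unadjusted p under 0.05. All 3 Bleo_NVP libraries lay below all 3 Bleo_vehicle libraries for Jun, Ier2 and Atf3, as they did for 17.2% of all genes (32.9% did not overlap in either direction). Jun was 13.9, 15.1 and 13.5 CPM against 26.2, 27.4 and 21.5 CPM, and Ier2 was 4.15, 4.20 and 3.27 CPM against 14.7, 8.18 and 7.89 CPM. Dusp1 (0.35 ± 0.46) and Nr4a1 (0.57 ± 0.60) again differed in the other direction from the rest, within their errors. These 2 contrasts share the Bleo_vehicle libraries, so that opposite signs between them are not separate observations.

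Without bleomycin the edgeR fit gave no call for the inhibitor, in the 10 genes or elsewhere. In PBS_NVP against PBS_vehicle 0 of 10 genes and 0% of all genes were called by edgeR (41 genes, and none of the 10, had an unadjusted p under 0.05), and DESeq2 called 0 of the 10, and none was free of overlap, against 3.08% of all genes, with differences of −0.82 (Atf3) to 0.38 (Dusp1). In Bleo_NVP against PBS_NVP the counts were 0 of 10 and 0% (400 genes, and none of the 10, at an unadjusted p under 0.05). In both contrasts fewer genes had an unadjusted p under 0.05 than the share of 0.05 that p-values give where nothing differs. Same-numbered PBS_vehicle and PBS_NVP libraries deviated together, which the main fit did not take up. Its lack of calls therefore does not show a lack of change. Jun and Ier2 of Bleo_NVP lay below all 3 PBS_NVP libraries, as did 5.82% of all genes (10.9% in either direction). The interaction, which is the inhibitor's difference under bleomycin minus that under PBS, called 0 of 10 genes and 0.298% of all genes, with Ier2 at −1.59 ± 0.68 (adjusted p = 0.319).

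**Figure D3:**
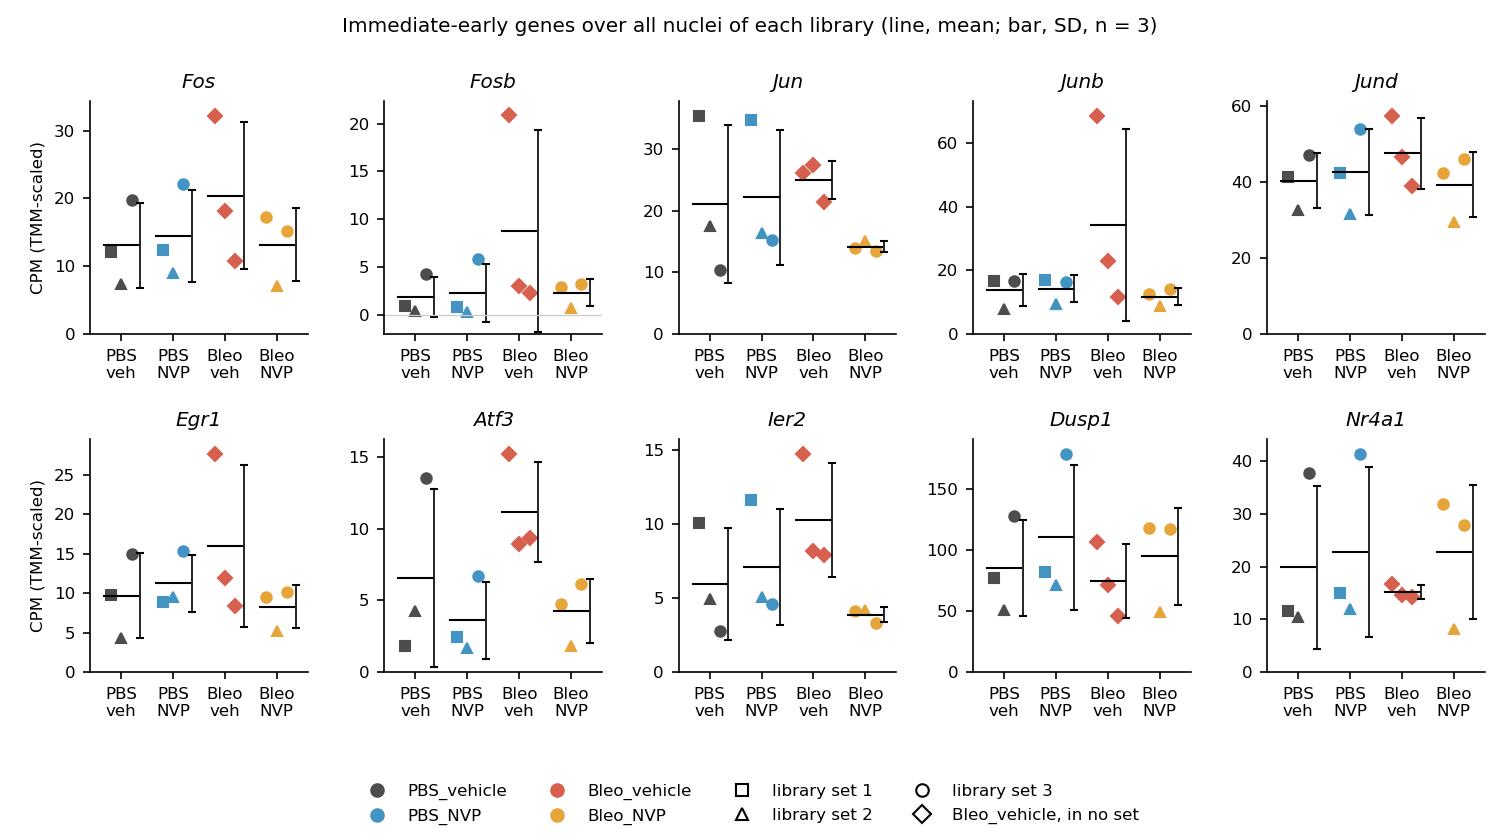
Levels of the 10 genes over all nuclei (CPM) in each library, 1 point per library, shaped by the set of like libraries, with the group mean (line) and SD (bar, n = 3). Junb was 68.5 CPM in Bleo_vehicle 1 and at most 22.9 CPM in the other 11 libraries, and Jun of Bleo_NVP (13.5 to 15.1 CPM) lay below Jun of Bleo_vehicle (21.5 to 27.4 CPM).

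**Figure D4:**
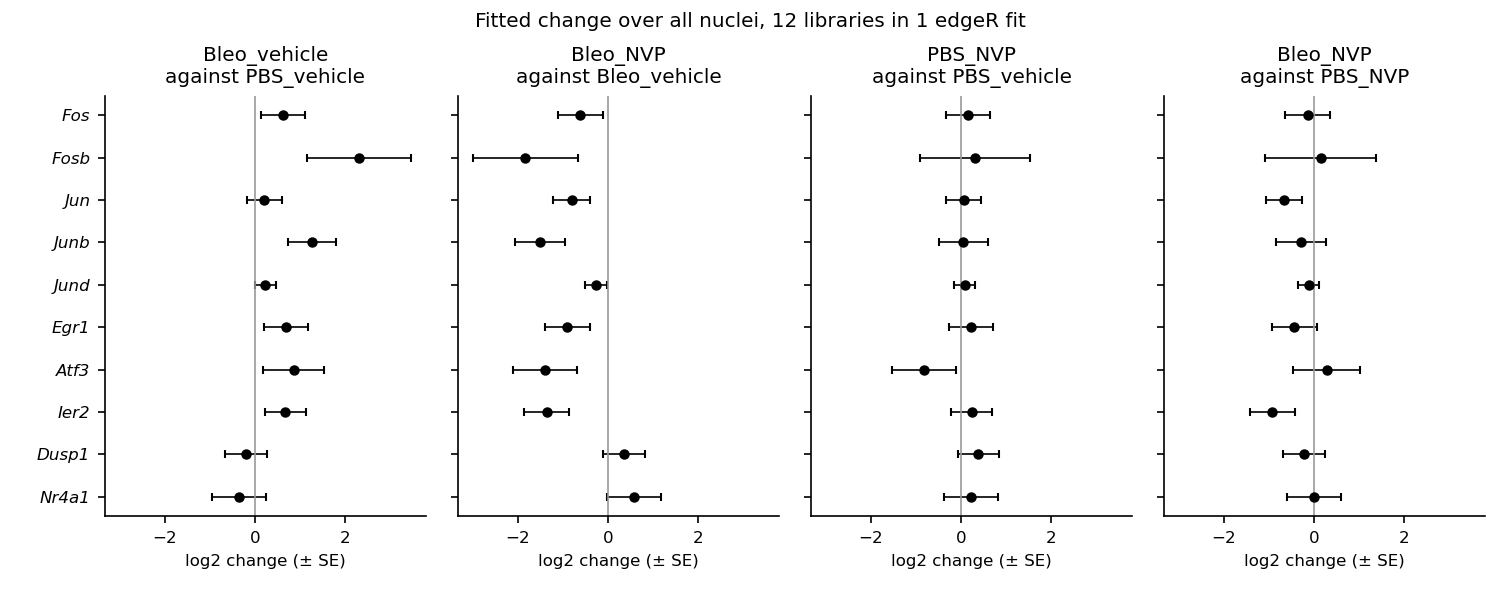
Fitted log2 differences (points) with SE (bars) of the 10 genes over all nuclei in 4 contrasts, from 1 edgeR fit of 12 libraries. Differences were above 0 for 8 genes in Bleo_vehicle against PBS_vehicle and below 0 for 8 genes in Bleo_NVP against Bleo_vehicle, and no gene passed the threshold in any contrast.

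The wider response was described with 4 gene lists over all nuclei. Of 53 further immediate-early genes 50 were tested. In Bleo_vehicle against PBS_vehicle 2 were higher, where 1.84% of all genes were, and 0 lower, with a list median of 0.47. They were Bhlhe40 (1.32 ± 0.30, adjusted p = 0.0444), a circadian and hypoxia-related repressor, and Rhob (0.75 ± 0.17, adjusted p = 0.0456), a small GTPase, and they were not called in 14 and 13 of the 21 alternative settings. In Bleo_NVP against Bleo_vehicle 3 were lower (3.57% of all genes) and 0 higher, with a median of −0.64. They were Rhob (−1.15 ± 0.18, adjusted p = 0.00763), Gadd45g (−2.54 ± 0.59, adjusted p = 0.0305), a growth-arrest gene, and Rcan1 (−0.51 ± 0.12, adjusted p = 0.0361), an inhibitor of calcineurin, which were not called in 1, 5 and 10 of the 21 alternatives. Rhob also passed in the interaction (−1.43 ± 0.25, adjusted p = 0.0423), where 0.27% of all genes were lower, but not in 12 of 20 alternatives (adjusted p up to 0.151). The lists were chosen with results of these data known and do not bear on direction by themselves.

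Of 14 genes of the glucocorticoid response 3 were higher (1.84% of all genes) and 0 lower in Bleo_vehicle against PBS_vehicle, and 0 were higher and 5 lower (3.57% of all genes) in Bleo_NVP against Bleo_vehicle. The leading genes were Lcn2, an acute-phase gene of injured epithelium (3.64 ± 0.34, adjusted p = 1.69e-04, and −3.74 ± 0.36, adjusted p = 2.67e-04), and the metallothioneins Mt2 (3.35 ± 0.58, adjusted p = 0.0156) and Mt1 (3.00 ± 0.60, adjusted p = 0.0273), which answer to metals and stress as well as to the hormone. Lcn2 was called in every one of the 21 alternatives of both contrasts, whereas Mt2 and Mt1 were not called in 3 and 7 of those for Bleo_vehicle against PBS_vehicle and in 1 and 3 of those for Bleo_NVP against Bleo_vehicle. Fkbp5, a common reporter of the hormone that was picked here after its values were seen, followed the sets, at 293, 334 and 320 CPM in set 2, 152 and 162 in set 1 and 51.2 to 57.6 in set 3, and was 909, 517 and 315 CPM in Bleo_vehicle. None of 17 heat shock genes was called in any of the 5 contrasts, with 0, 1, 0, 2 and 0 at an unadjusted p under 0.05. Of 28 regulators upstream of the immediate-early genes, from MAP kinases to serum response factor and CREB, Mapk8 was higher in Bleo_NVP against Bleo_vehicle (0.61 ± 0.16, adjusted p = 0.0496), where 1.98% of all genes were, and no other was called in any contrast. Mapk8 was not called in 11 of 21 alternatives (adjusted p up to 0.161).

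To keep the makeup of the lung out of the comparison, the same test was run within 12 classes, where low counts left 40 pairs of class and immediate-early gene in 9 classes. Dusp1 could be tested in 9 classes, Jund in 8, Jun in 6, Junb and Nr4a1 in 4, Fos and Ier2 in 3, and Egr1 (fibroblasts), Atf3 and Fosb (type I alveolar cells) in 1. In Bleo_vehicle against PBS_vehicle 1 of 40 pairs was called, where 2.96% of all pairs of class and gene were. In Bleo_NVP against Bleo_vehicle 0 of 40 were called (3.84% of all pairs), with 7 at an unadjusted p under 0.05. The other contrasts called 0 of 40, against 0%, 0% and 0.568% of all pairs, with 0, 4 and 2 pairs at an unadjusted p under 0.05. Groups did not overlap for 4 pairs higher and 1 lower in Bleo_vehicle against PBS_vehicle (19.3% of all pairs), for 1 higher and 9 lower in Bleo_NVP against Bleo_vehicle (24.7%), for 1 higher in PBS_NVP against PBS_vehicle (5.69%) and for 3 lower in Bleo_NVP against PBS_NVP (10.1%). A share of called pairs near or below that of all genes is no result about these genes as a group.

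The called pair was Jund in type II alveolar cells, the surfactant-making and progenitor cells of the alveolus. Its level was 76.8, 78.4 and 58.9 CPM in Bleo_vehicle (16, 63 and 280 UMIs) and 37.7, 29.0 and 34.9 CPM in PBS_vehicle (81, 11 and 12 UMIs). The groups did not overlap, as was so for 23% of the genes tested in this class, and Jund rose by 1.00 ± 0.28 (adjusted p = 0.0488), with 4.7% of the genes tested in this class called. It was 35.7, 44.8 and 19.9 CPM in Bleo_NVP, below all 3 Bleo_vehicle libraries, a difference from Bleo_vehicle of −1.04 ± 0.31 that missed the threshold (adjusted p = 0.0556), where 5.04% of the genes of this class were called and 26.1% did not overlap. PBS_NVP was at 40.9, 40.5 and 46.7 CPM.

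The call was at the edge of the threshold. It was lost when any of PBS_vehicle 1, 2 or 3, PBS_NVP 1, 2 or 3, Bleo_vehicle 1 or 2, or Bleo_NVP 1 or 2 was left out (adjusted p = 0.0517 to 0.232), and kept without Bleo_vehicle 3 (adjusted p = 0.0287) or Bleo_NVP 3 (adjusted p = 0.0439). The cluster led by Acoxl held 61.5% of the type II nuclei of Bleo_vehicle and 70.5% of those of PBS_vehicle. Within this cluster, in CPM without TMM scaling, Jund was 94.2, 63.5 and 48.4 in Bleo_vehicle and 33.4, 30.3 and 30.6 in PBS_vehicle, so that the groups were as far apart as in the whole class. Within the cluster led by Areg it was 37.5, 76.5 and 65.3 against 57.3, 15.2 and 51.0, and the groups overlapped.

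In type II cells Fos, Fosb, Junb, Egr1 and Nr4a1 were also higher in all 3 Bleo_vehicle libraries than in PBS_vehicle, without passing the test or too low for it, while Jun, Dusp1, Ier2 and Atf3 overlapped. Of the genes tested in this class 23% were free of overlap, counting both directions. That share does not cover Fos, Fosb and Egr1, which were too low to be tested. In the clusters led by Acoxl and by Areg, Egr1 gave 0 UMIs in every PBS_vehicle library and Fosb at most 1, so these values lie near the floor. Nr4a1 was 38.4, 46.1 and 40.4 CPM in Bleo_vehicle against 14.9, 10.6 and 23.3 CPM in PBS_vehicle (1.41 ± 0.44, adjusted p = 0.0728), and Junb was 57.6, 27.4 and 19.6 CPM against 5.58, 10.6 and 14.6 CPM (1.78 ± 0.74, adjusted p = 0.208). Fos, too low to be tested in this class, was 28.8, 19.9 and 12.6 CPM against 3.25, 2.64 and 2.91 CPM. Dusp1 was 149, 42.3 and 32.2 CPM against 34.9, 29.0 and 37.8 CPM, and Jun 24.0, 21.2 and 22.9 CPM against 19.1, 7.92 and 29.1 CPM. Of the 11 classes, type II alveolar cells were the only one in which the 3 Bleo_vehicle libraries all lay above the 3 PBS_vehicle libraries for the 10 genes summed, at 475, 261 and 215 CPM against 126, 100 and 157 CPM. For single genes, 19.3% of all tested pairs of class and gene did not overlap between these groups, counting both directions. A count of 1 class in 11 is therefore no result about type II cells. As given above, mitochondrial share also separated these groups and free RNA was high in Bleo_vehicle 2 and 3, and their part was not tested.

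In type I alveolar and fibroblast nuclei, where 8 of the 10 genes could be tested, none passed. Jun in type I cells was 31.3, 24.9 and 23.9 CPM in Bleo_vehicle against 22.2, 17.4 and 10.6 CPM in PBS_vehicle (0.60 ± 0.29, adjusted p = 0.355) and 14.2, 11.6 and 16.2 CPM in Bleo_NVP (−0.90 ± 0.29 from Bleo_vehicle, adjusted p = 0.0938). The Bleo_vehicle libraries were above those of both other groups. Of the genes tested in type I cells, 17.1% did not overlap between Bleo_vehicle and PBS_vehicle and 29.1% between Bleo_NVP and Bleo_vehicle, counting both directions. Junb in type I cells was 51.8, 12.3 and 8.98 CPM in Bleo_vehicle against 10.3, 3.47 and 12.7 CPM in PBS_vehicle (1.099 ± 0.61, adjusted p = 0.427), and Bleo_vehicle 1 alone stood out. In fibroblasts the differences from PBS_vehicle ran from −0.99 ± 0.87 (Fos) to 0.77 ± 0.86 (Junb). Egr1, tested in fibroblasts only, was 62.2, 30.7 and 23.0 CPM in Bleo_vehicle, 33.5, 13.04 and 27.3 CPM in PBS_vehicle and 20.5, 12.4 and 26.5 CPM in Bleo_NVP, with all groups overlapping.

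The pairs without overlap among the inhibitor-treated mice were few. Jund in alveolar macrophages, given below, differed between Bleo_NVP and PBS_NVP by −1.07 ± 0.35 (adjusted p = 0.909), with 50.3, 44.9 and 57.2 CPM in PBS_NVP. Jun in general capillary cells was 24.4, 37.5 and 26.5 CPM in Bleo_NVP against 72.0, 49.3 and 45.6 CPM in PBS_NVP (−0.92 ± 0.40, adjusted p = 0.9999), and Dusp1 in aerocytes differed by −1.36 ± 0.54 (adjusted p = 0.934). None of these passed the test.

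The direction of the group means differed between the 10 genes. In group means over the 11 classes, Bleo_vehicle was above PBS_vehicle in 11 of 11 for Junb and Egr1, in 10 for Ier2 and in 9 for Atf3, but in 6 for Jund and in 3 for Nr4a1. Bleo_NVP was above Bleo_vehicle in 0 of 11 for Junb and Ier2 and in 1 for Egr1, but in 4 for Jund and Dusp1 and in 7 for Nr4a1. Classes of 1 library share its depth and free RNA and are not independent counts of a direction.

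Whether a difference between groups was the same in all classes was tested in 1 edgeR fit over the sums of 11 classes and 12 libraries, with a term for each library that takes up what its classes share, by an F-test over 10766 genes that included 9 of the 10 (Fosb was too low). In Bleo_NVP against Bleo_vehicle Jund differed between classes (F = 4.04, adjusted p = 0.00172), where 16.8% of all genes did. Fitted within each class, its difference was −1.04 ± 0.31 in type II alveolar cells, −1.10 ± 0.49 in general capillary cells, −0.74 ± 0.35 in alveolar macrophages and −0.73 ± 0.31 in type I alveolar cells, but 0.69 ± 0.42 in fibroblasts and 0.64 ± 0.38 in club cells. In alveolar macrophages Jund was 23.0, 24.9 and 23.4 CPM in Bleo_NVP (3, 8 and 6 UMIs) against 37.8, 41.9 and 40.2 CPM in Bleo_vehicle, whereas in fibroblasts it was 54.3, 27.2 and 65.0 CPM against 42.7, 28.0 and 24.1 CPM. Fibroblast Jund also stood in the order of the sets of like libraries. It was 54.3 to 73.0 CPM in set 3, which holds Bleo_NVP 1 and 3, and 39.6 to 39.9 CPM in set 1. In set 2, which holds Bleo_NVP 2, it was 27.2 to 29.6 CPM. The part of the sets in the fibroblast difference was not tested. In fibroblasts the largest cluster was another in Bleo_vehicle (35.0% of nuclei) than in Bleo_NVP (41.1%). Without Bleo_NVP 1 the difference between classes was not called (adjusted p = 0.0945).

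In Bleo_vehicle against PBS_vehicle Nr4a1 differed between classes (F = 2.53, adjusted p = 0.0461), where 20.1% of all genes did. Its fitted difference was 1.41 ± 0.44 in type II alveolar cells and 0.62 ± 0.88 in type I alveolar cells, but −0.80 ± 0.91 in fibroblasts and −0.48 ± 1.05 in venous endothelium. In fibroblasts it was 20.7, 15.4 and 15.5 CPM in Bleo_vehicle against 18.4, 8.53 and 63.8 CPM in PBS_vehicle, where PBS_vehicle 3 alone was high. The call was lost without any of 9 libraries (adjusted p up to 0.334, without PBS_vehicle 1), which were every library but PBS_vehicle 3, Bleo_vehicle 1 and Bleo_NVP 2. The other members were not called in these contrasts, the nearest being Egr1 (adjusted p = 0.0787) and Jund (adjusted p = 0.0879) in Bleo_vehicle against PBS_vehicle. No member was called in the 3 other contrasts, where 0%, 0% and 5.25% of all genes were.

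**Figure D5:**
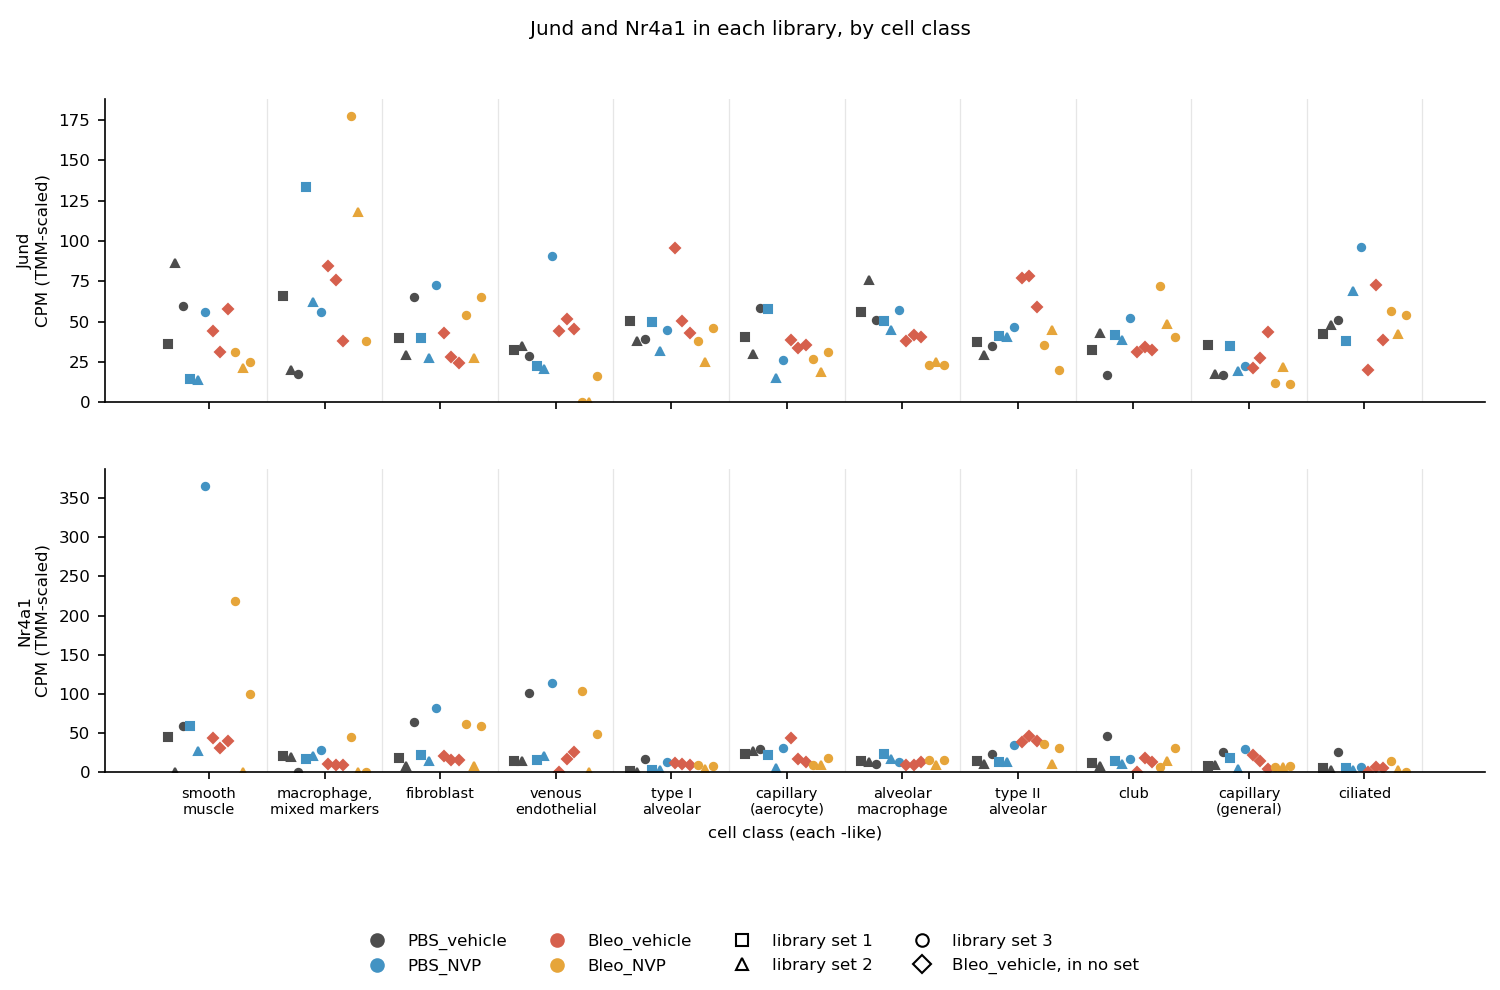
Levels of Jund and Nr4a1 (CPM, linear axis from 0) in 11 cell classes, with 1 point for each of 12 libraries, coloured by group and shaped by the set of like libraries. In type II alveolar cells both genes were higher in the 3 Bleo_vehicle libraries than in the 3 PBS_vehicle libraries, while in fibroblasts Nr4a1 was highest in the circles (set 3), at 59.1 to 81.6 CPM.

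To see what moved with the 10 genes, log2 CPM values of 11 classes and 12 libraries (132 points, which share libraries and their depth) were centred on the class mean and correlated with the mean over the 10 genes, among 1459 genes tested in all classes. The highest Pearson correlations were those of Neat1 (0.56), a nuclear long noncoding RNA, Cdk11b (0.48), Mprip (0.48), mt-Atp6 (0.48), Actb (0.48), mt-Nd2 (0.48), mt-Co2 (0.47), Mdm2 (0.46), Cdk8 (0.46) and mt-Co3 (0.46). Of these 10 genes 4 are mitochondrial, and mitochondrial share was highest in Bleo_vehicle. Correlated with the mean of the other 9, Fos was the most typical of the 10 (0.60), followed by Junb (0.55), Egr1 (0.54), Fosb (0.495) and Dusp1 (0.495), and Ier2 (0.29) and Jun (0.22) the least. Within classes, Jun thus varied most apart from the rest. Its higher level in the endothelium plays no part in this, since class means were taken out.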

How the data were processed

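The authors deposited UMI counts per gene and barcode for each library (10x 3′ v3.1 chemistry), made with Cell Ranger (7.2.0 per the file headers, 7.0 per the labels) on mm10. Their later DecontX, DoubletFinder and Harmony steps are not in these counts. Nuclei with 200 to 6000 genes and at most 5% mitochondrial UMIs were kept, and doublets were removed by simulated-doublet score at 0.8% per 1000 nuclei. Clusters came from 2000 variable genes, leaving out the 10 genes and all lists, with 30 components, Harmony-style correction per library and Leiden (scanpy 1.11.5). Sums per library and class were tested in edgeR 4.0.16 (TMM, filterByExpr, robust quasi-likelihood fit, all 4 groups in 1 fit), checked on simulated data. DESeq2 1.42.0 was an alternative.

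The members and lists were chosen with earlier results of these data known. All 10 members are named whatever their values, with up to 3 called genes per list and contrast by smallest adjusted p, and the 10 most alike genes. Same-numbered PBS_vehicle and PBS_NVP libraries deviated together (r = 0.871, 0.611 and 0.708 over 9165 genes), a link seen in the data and not stated in the labels, so the block of replicate numbers was run as an alternative. Intervals cover counting error only.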

Additional observations from a re-analysis of the deposited data

Results flagged for a closer look

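Both flagged results are differences between cell classes under the same contrast, by the F-test of edgeR's quasi-likelihood fit over 11 classes with a term per library. For Nr4a1 in Bleo_vehicle against PBS_vehicle the adjusted p was 0.0461 (F = 2.53), where 20.1% of all genes passed, with a fitted difference of 1.41 ± 0.44 in type II alveolar cells and −0.80 ± 0.91 in fibroblasts. It was called in 9 of 20 alternative settings.

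For Jund in Bleo_NVP against Bleo_vehicle the adjusted p was 0.00172 (F = 4.04), where 16.8% of all genes passed, with differences of −1.04 ± 0.31 in type II alveolar cells and 0.69 ± 0.42 in fibroblasts. It was called in 19 of 20 alternative settings. In fibroblasts Jund also stood in the order of the sets of like libraries, and the part of the sets was not tested. In either contrast, group cannot be told apart from batch.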

How the results depend on the processing

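Among the 10 genes, no difference with an unadjusted p under 0.05, over all nuclei or within a class, reversed its sign in an alternative setting. The direction of other named differences was not compared between settings, and an F-test over classes has no direction. Over all nuclei, 1 of the 10 genes was called in Bleo_NVP against Bleo_vehicle under DESeq2 (Junb), with only the groups compared (Jun) and with the replicate block (Ier2), against 0 as reported. For pairs of class and gene in Bleo_vehicle against PBS_vehicle, where 1 was called, the count was 0 under DESeq2, thinned libraries, a stricter choice of nuclei (a minimum of 500 UMIs and a maximum of 1% mitochondrial), mitochondrial genes left out, and only the groups compared, 2 without batch correction, and 6 with no filter on low counts. With no filter it was 8 in Bleo_NVP against Bleo_vehicle and 4 in the interaction. For differences between classes the counts with no filter were 5 in Bleo_vehicle against PBS_vehicle, 2 in Bleo_NVP against Bleo_vehicle (1 as reported in each), and 1 (Egr1) in each of the other 3 contrasts. In Bleo_vehicle against PBS_vehicle that count was 0 with thinned libraries or mitochondrial genes left out, and 2 (Jund and Nr4a1) with the stricter nuclei, doublets kept or no batch correction. The causes were not tested.

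With 1 library left out at a time, the counts over all nuclei were 0 to 1 in both Bleo_vehicle contrasts (Junb, without Bleo_vehicle 3). Counts of pairs were 0 to 1 in Bleo_vehicle against PBS_vehicle and 0 to 3 in Bleo_NVP against Bleo_vehicle (Dusp1 in ciliated, Junb in type I and Jund in type II alveolar cells, without Bleo_vehicle 3). Counts of differences between classes were 0 to 2 (Egr1 and Nr4a1, without PBS_vehicle 3), 0 to 1 (0 without Bleo_NVP 1) and, in the interaction, 0 to 1 (Egr1, without PBS_NVP 1), and the other counts stayed at 0.

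With the replicate block, 1 pair was called in Bleo_NVP against Bleo_vehicle (Jund in type II alveolar cells, −1.07, adjusted p = 0.0477), Ier2 over all nuclei was at −1.32 (adjusted p = 0.0178), and no other count moved. Same-numbered libraries of the bleomycin groups did not all deviate together with the rest (r = −0.148 to 0.438 against PBS_vehicle). Blocks of like libraries, an alternative chosen after seeing the data, called 1 pair in Bleo_NVP against PBS_NVP (Dusp1 in fibroblasts).

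Without thinning, the share of nuclei with a UMI of the 10 genes was 36.9% in all nuclei, 31.2% in smooth muscle, 25.9% in macrophages with mixed markers, 46.6% in fibroblasts, 32.2% in venous endothelium, 52.1% in type I and 27.8% in type II alveolar cells, 33.9% in aerocytes, 43.1% in alveolar macrophages, 30.5% in club, 23.4% in general capillary and 25.6% in ciliated cells. Low counts kept most pairs of gene and class from being tested.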
